A study of Homo sapiens with 18 samples.

Results

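The genes described here are 9 genes of MHC class I antigen presentation, HLA-B, HLA-C, HLA-E, B2M, TAP1, TAP2, PSMB8, PSMB9 and NLRC5. They were found by gene symbol among the 38055 genes of the whole transcriptome table, which held all 9. The study followed HCT116 cells, a human colorectal carcinoma line with a WT genotype, as they grew denser in culture. Whole transcriptome RNAseq values were used from 3 libraries on day 3 at 50% confluency and 3 libraries on day 5 at 250% confluency. Cells of both days grew in McCoy's 5A medium with 10% fetal bovine serum and received no other treatment named in the labels. The comparison asked which genes differ between sparse and crowded cells of one line, so that time in culture and confluency cannot be told apart.

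MHC class I molecules show peptides from inside the cell to CD8 T cells and are read by receptors of natural killer cells. Proteasomes cut proteins into peptides, the TAP transporter carries the peptides into the endoplasmic reticulum, and there they are loaded onto a heavy chain paired with the light chain beta-2-microglobulin. Interferon gamma, NF-kappaB and the transactivator NLRC5 are known inducers of these genes. Colorectal tumours are known for losing parts of this pathway.

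The promoter stretches of 5 genes are shown because the heavy chains and B2M, and likewise the neighbours TAP1 and PSMB9, moved in opposite directions. B2M and TAP1 no longer passed the test after a correction for GC content and length, given below. The stretches were chosen by direction, and a link between motifs and direction was not tested. They are RefSeq sequence on GRCh38.p14 and not reads of HCT116, and each runs 5′ to 3′ on the strand of its gene from position -200 to -31, counted from the RefSeq start of transcription. Promoter windows were found for 7 of the 9 genes. Capitals mark matches to the NF-kappaB consensus and to AANNGAAA, TGACG and CCAAT, on either strand. AANNGAAA is the core bound by interferon regulatory factors, TGACG the core bound by CREB and ATF factors, and CCAAT the core bound by NF-Y.
HLA-B, chr6:31357210-31357379, minus strand: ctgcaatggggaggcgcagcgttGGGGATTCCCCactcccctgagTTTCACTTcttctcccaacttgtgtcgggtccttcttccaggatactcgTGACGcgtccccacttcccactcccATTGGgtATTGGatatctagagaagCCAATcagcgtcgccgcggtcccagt
HLA-C, chr6:31272123-31272292, minus strand: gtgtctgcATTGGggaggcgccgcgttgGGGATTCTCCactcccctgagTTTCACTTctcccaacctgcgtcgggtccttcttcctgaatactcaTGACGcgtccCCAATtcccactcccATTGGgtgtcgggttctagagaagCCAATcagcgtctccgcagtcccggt
B2M, chr15:44711317-44711486, plus strand: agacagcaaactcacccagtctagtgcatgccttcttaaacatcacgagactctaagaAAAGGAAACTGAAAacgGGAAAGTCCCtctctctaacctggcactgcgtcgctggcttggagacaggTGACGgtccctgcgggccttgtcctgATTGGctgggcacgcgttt
TAP1, chr6:32853735-32853904, minus strand: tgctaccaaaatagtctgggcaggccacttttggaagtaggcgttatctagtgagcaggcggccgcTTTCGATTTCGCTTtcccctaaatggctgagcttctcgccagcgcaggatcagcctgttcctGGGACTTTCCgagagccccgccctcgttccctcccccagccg
PSMB9, chr6:32853992-32854161, plus strand: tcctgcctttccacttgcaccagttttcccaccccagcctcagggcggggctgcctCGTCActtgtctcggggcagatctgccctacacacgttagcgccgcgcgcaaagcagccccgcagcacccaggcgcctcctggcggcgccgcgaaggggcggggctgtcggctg
The HLA-B, HLA-C and B2M stretches each held all 4 motifs. The TAP1 stretch held the NF-kappaB consensus and AANNGAAA, and the PSMB9 stretch held TGACG alone. TAP1 and PSMB9 start on opposite strands and run away from each other. Their whole windows overlap (chr6:32853655-32853954 and chr6:32853942-32854241). The TAP1 matches therefore also lie upstream of the RefSeq start of PSMB9, beyond its window. Their absence from the PSMB9 stretch reflects where the window ends. TAP1 has 2 promoter windows, and the other one, not printed, held none of the 4 motifs. The TAP2 window, also not printed, held AANNGAAA and TGACG and no NF-kappaB consensus. PSMB8 has 2 windows, not printed, which held AANNGAAA in the first and TGACG in the other. In B2M, TAP1, TAP2 and PSMB8, 2 matches to AANNGAAA overlapped. Among 34943 RefSeq promoter windows of 250 bases before to 50 bases after the start, 5.90% held the NF-kappaB consensus, 22.9% AANNGAAA, 24.5% TGACG and 34.6% CCAAT. These shares are for whole windows, which are longer than the printed stretches. In their whole windows, CCAAT was also found in TAP1 (from position -249) and in PSMB9 (from position -243). TAP1 also held another NF-kappaB match there (from position 22). These matches are descriptions of the letters and not of bound factors.

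The libraries held 27470978 to 56689369 reads on genes on day 3 and 31403756 to 33661896 on day 5. Values below are the deposited normalized reads per gene. A gene was tested if 3 or more libraries reached a value of 10, which left 20129 genes, and limma was fitted to log2(value + 1) with Benjamini-Hochberg adjustment and a threshold of 0.05, and log2 differences are day 5 minus day 3. The labelled epithelial cell type was checked with 6 markers, whose summed value was 37741 to 56054 on day 3 and 103053 to 103811 on day 5. Of these 6, 5 rose, where 29.3% of all genes tested rose. The adherens junction gene CDH1 rose by 2.63 on the log2 scale (limma adjusted p = 0.0001), and EPCAM was at 0.00 (limma adjusted p = 0.982). The part of this change in the results that follow was not tested. Of 8 leukocyte markers, 5 were in the table, and their summed value was 19.2 to 32.6 on day 3 and 18.4 to 25.9 on day 5. The leukocyte antigen PTPRC was listed at 0 in 2 libraries of each day and the T cell antigen CD3E reached at most 1.42.

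Of the 9 genes, 8 had values high enough to test. The heavy chain genes HLA-B, HLA-C and HLA-E and the transporter genes TAP1 and TAP2 rose, B2M and PSMB9 fell, NLRC5 did not pass the test, and PSMB8 was too low to test. Over all genes tested, 56.9% passed, with 29.3% higher and 27.6% lower on day 5, so that 7 of 8 passing stands against a background in which most genes passed. The libraries of both days did not overlap for any of the 8 genes, against 65.0% of all genes tested. The median log2 difference was 0.48 over the 8 genes and 0.01 over all genes tested. In RNA from whole cultures, fewer cells of a type and less RNA per cell cannot be told apart.

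**Figure D1:**
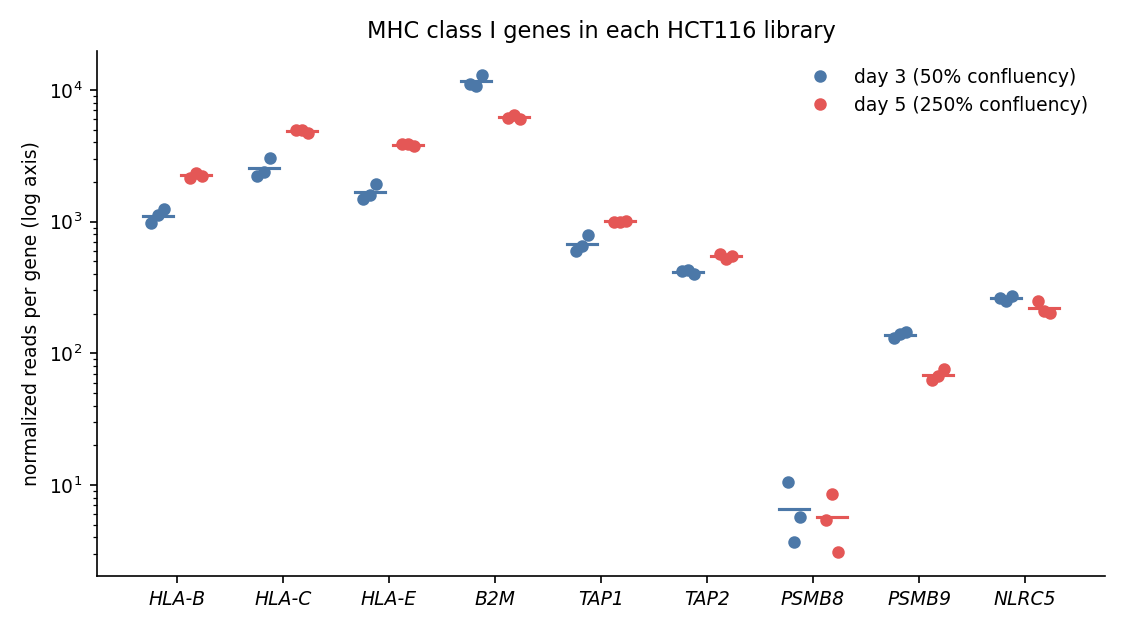
Normalized reads of the 9 class I genes on a log axis, with 1 point per library of day 3 (blue) and day 5 (red) and a line at the mean of 3 libraries. HLA-B, HLA-C, HLA-E, TAP1 and TAP2 lie higher on day 5 in every library, B2M, PSMB9 and NLRC5 lie lower, and the PSMB8 values overlap.

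The heavy chain genes lie in the MHC region of chromosome 6. HLA-B (ENSG00000234745, chr6:31353872-31367067), a classical heavy chain that shows peptides to CD8 T cells, was at 972, 1128 and 1236 on day 3 and at 2161, 2345 and 2222 on day 5. Every day 5 library was above every day 3 library. The mean rose from 1112 ± 133 to 2243 ± 93.6 (SD, n = 3), a log2 difference of 1.02 (SE 0.11; limma adjusted p = 0.000657).

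HLA-C (ENSG00000204525, chr6:31268749-31272130), a classical heavy chain that is also the main ligand of killer cell immunoglobulin-like receptors, was at 2218, 2390 and 3052 on day 3 and at 4985, 4931 and 4692 on day 5. The day 3 libraries were spread more widely than the day 5 libraries, and the days did not overlap. The log2 difference was 0.94 (SE 0.13; limma adjusted p = 0.00169).

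HLA-E (ENSG00000204592, chr6:30489509-30494194), a nonclassical heavy chain that shows leader peptides of other class I chains to the inhibitory receptor CD94-NKG2A, was at 1493, 1602 and 1915 on day 3 and at 3866, 3868 and 3743 on day 5. It had the greatest rise of the 9 genes. The log2 difference was 1.20 (SE 0.11; limma adjusted p = 0.000417). Heavy chain genes are polymorphic and close in sequence, so reads of one can be counted on another, and their separate values are uncertain to that extent.

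B2M (ENSG00000166710, chr15:44711358-44718851), the light chain that every classical heavy chain needs to reach the cell surface, moved the other way. It was at 11130, 10719 and 13063 on day 3 and at 6093, 6467 and 5964 on day 5. All day 5 libraries were lower than all day 3 libraries. The mean fell from 11637 ± 1252 to 6175 ± 261 (SD, n = 3), a log2 difference of -0.91 (SE 0.10; limma adjusted p = 0.000742).

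The summed value of HLA-B, HLA-C and HLA-E was 0.421, 0.478 and 0.475 times that of B2M in the day 3 libraries and 1.81, 1.72 and 1.79 times in the day 5 libraries. Each day 5 library was above each day 3 library. These sums are not per length, and per kilobase of canonical transcript the ratio was 0.225, 0.256 and 0.255 on day 3 and 0.953, 0.91 and 0.942 on day 5, below 1 on both days. Scaling of the libraries cannot alter a ratio of this kind, and its log2 was higher by 1.96, from -1.13 ± 0.10 to 0.83 ± 0.04 (SD, n = 3; two-sided exact permutation p = 0.1, adjusted 0.167 over 5 ratios). An exact test of 3 libraries against 3 cannot give a p below 0.1. The log2 difference per kilobase was 1.93 (exact permutation p = 0.1).

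**Figure D2:**
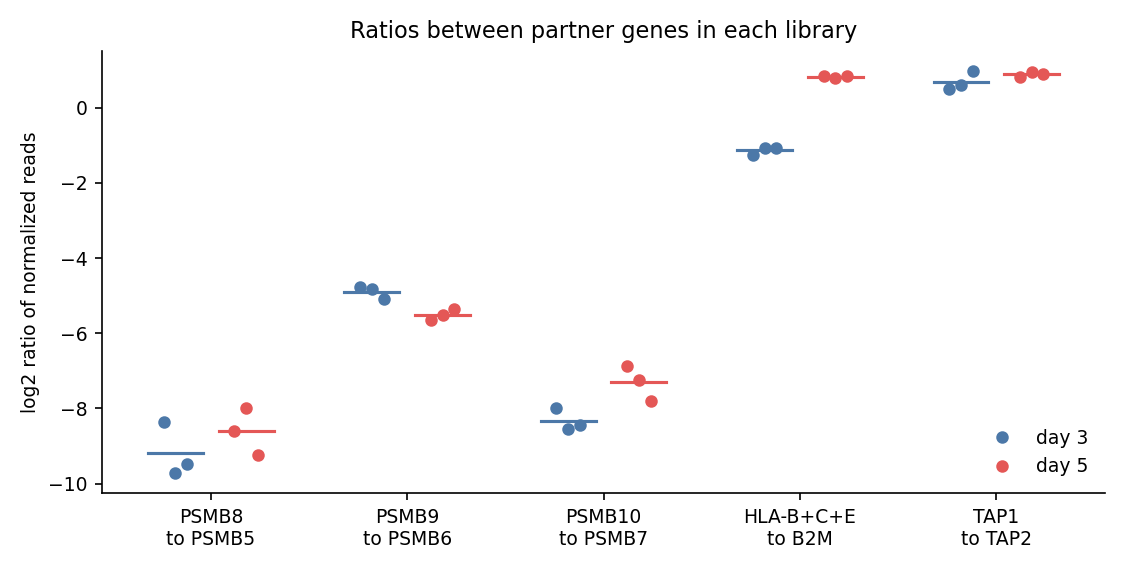
Log2 ratios of paired class I and proteasome genes within each library, day 3 and day 5, with 1 point per library (day 3 blue, day 5 red) and a line at the mean of 3. The heavy chain to B2M ratio rose from -1.13 to 0.83 with no overlap, while the TAP1 to TAP2 and PSMB8 to PSMB5 ratios overlapped between days.

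TAP1 and TAP2 encode the chains of the peptide transporter. TAP1 (ENSG00000168394, chr6:32845209-32853816) was at 593, 655 and 787 on day 3 and at 998, 1001 and 1019 on day 5. The day 5 libraries were close together and above all of day 3. The log2 difference was 0.58 (SE 0.12; limma adjusted p = 0.00732).

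TAP2 (ENSG00000204267, chr6:32821833-32838739) was at 422, 428 and 398 on day 3 and at 565, 520 and 549 on day 5, again without overlap. The log2 difference was 0.39 (SE 0.08; limma adjusted p = 0.00656), and with no filter on low values it missed the threshold (limma adjusted p = 0.0526). The log2 ratio of TAP1 to TAP2 was 0.69 ± 0.26 on day 3 and 0.88 ± 0.06 on day 5 (SD, n = 3; two-sided exact permutation p = 0.4, adjusted 0.4). The libraries of both days overlapped in that ratio.

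PSMB8 and PSMB9 encode subunits that replace standard catalytic subunits in the immunoproteasome. PSMB9 (ENSG00000240065, chr6:32844136-32859851) was at 130, 139 and 146 on day 3 and at 62.9, 67.5 and 76.6 on day 5. Every day 5 library was lower. The log2 difference was -1.0 (SE 0.10; limma adjusted p = 0.000567). The annotated PSMB9 locus overlaps TAP1 by 8608 bases on the opposite strand, and the reads were counted by strand.

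PSMB8 (ENSG00000204264, chr6:32840717-32844679) was at 10.5, 3.71 and 5.67 on day 3 and at 5.42, 8.57 and 3.11 on day 5. These values rest on 22 reads on day 3 and 16 on day 5 in all, and the days overlapped. Without the filter the log2 difference was -0.17, with a 95% interval from -1.31 to 0.97 (limma adjusted p = 0.834), so that no difference was detectable at this depth.

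The standard subunits that the inducible ones replace all fell, where 27.6% of all genes tested fell. PSMB5 fell by 0.76, PSMB6 by 0.40 and PSMB7 by 1.03 on the log2 scale (limma adjusted p = 0.00158, 0.0483 and 0.000679). The PSMB6 call was lost with no filter (limma adjusted p = 0.146) with a replicate block (0.0735), and when day 3 replicate 2 or any 1 of the day 5 libraries was left out (0.0832 to 0.113). PSMB10, the inducible counterpart of PSMB7, was at 29, 18.5 and 25.5 on day 3 and at 31.5, 24.7 and 17.6 on day 5 (limma adjusted p = 0.997). Relative to its standard counterpart, PSMB9 was lower on day 5 in every library, with a log2 ratio to PSMB6 of -4.90 ± 0.17 on day 3 and -5.51 ± 0.15 on day 5 (SD, n = 3; two-sided exact permutation p = 0.1, adjusted 0.167). PSMB10 to PSMB7 was higher on day 5, from -8.33 ± 0.30 to -7.31 ± 0.46 (exact permutation p = 0.1, adjusted 0.167), a difference of 1.03 that was 0.52 with the trends of GC content and length removed (exact permutation p = 0.2). PSMB8 to PSMB5 overlapped between days (exact permutation p = 0.3, adjusted 0.375).

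NLRC5 (ENSG00000140853, chr16:56989485-57083531), the transactivator of class I promoters, was at 264, 250 and 274 on day 3 and at 248, 211 and 203 on day 5. The highest day 5 library lay just under the lowest of day 3. The log2 difference was -0.25 (SE 0.10), with an unadjusted p of 0.0499 and a limma adjusted p of 0.0807. Without day 5 replicate 1 the difference was -0.34 and passed (limma adjusted p = 0.0347).

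**Figure D3:**
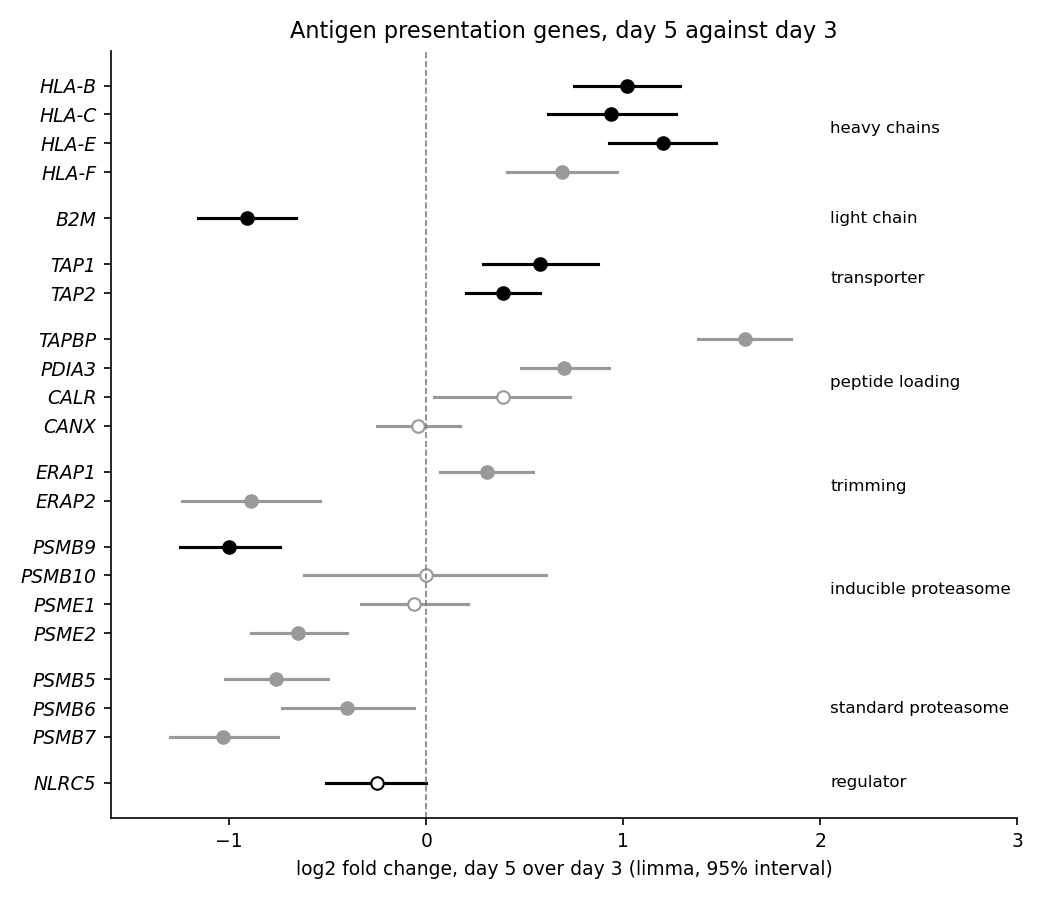
Log2 difference of day 5 over day 3 with its 95% interval from limma for the 8 tested class I genes (black) and other genes of the pathway (grey), where filled points passed the adjusted threshold and open points did not. HLA-E at 1.20 and TAPBP at 1.62 lie on the high side, and B2M at -0.91, PSMB9 at -1.0 and PSMB7 at -1.03 on the low side.

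Per kilobase of canonical transcript, which allows genes to be compared, the day 3 level was 12341 ± 1327 normalized reads per kb for B2M, 1656 ± 286 for HLA-C, 724 ± 86.5 for HLA-B and 655 ± 86.1 for HLA-E (SD, n = 3). HLA-B and HLA-E overlapped. TAP1 followed at 253 ± 36.9, PSMB9 at 136 ± 7.93, TAP2 at 73.7 ± 2.77, NLRC5 at 38.7 ± 1.77 and PSMB8 at 5.91 ± 3.13, with no overlap between neighbours in that order. On day 5 the order differed in 2 places. HLA-E (1502 ± 28.1 per kb) and HLA-B (1460 ± 60.9 per kb) still overlapped, with their means exchanged, and TAP2 (96.5 ± 4.06 per kb) was above PSMB9 (67.9 ± 6.87 per kb). B2M stayed the highest at 6548 ± 277 per kb, above HLA-C at 3158 ± 101 per kb.

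Transcript composition moved with the difference between days over all genes. Among 19288 tested genes with a GC content and length, the median log2 difference went from -0.40 in the lowest of 10 equal bins of GC content to 0.63 in the highest, and from -0.43 in the shortest of 10 bins of length to 0.30 in the longest. HLA-B and HLA-C (58.9% and 60.1% GC) lie in a bin with a median of 0.50, HLA-E and TAP1 (55.1% and 57.4%) in one with 0.32, and B2M (39.1%) in one with -0.33. NLRC5 (58% GC) shares the bin of HLA-B and HLA-C and had a negative difference.

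With the trends of GC content and length removed from each library, HLA-B, HLA-C, HLA-E and PSMB9 kept their calls, at log2 differences of 0.71, 0.59, 0.90 and -0.90 (limma adjusted p = 0.00179, 0.00446, 0.000778 and 0.00116). B2M at -0.33, TAP1 at 0.15 and TAP2 at 0.08 no longer passed (limma adjusted p = 0.0601, 0.209 and 0.428), and NLRC5 passed at -1.01 (limma adjusted p = 0.00085). The heavy chain to B2M log2 ratio then differed by 1.05 between days (two-sided exact permutation p = 0.1).

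**Figure D4:**
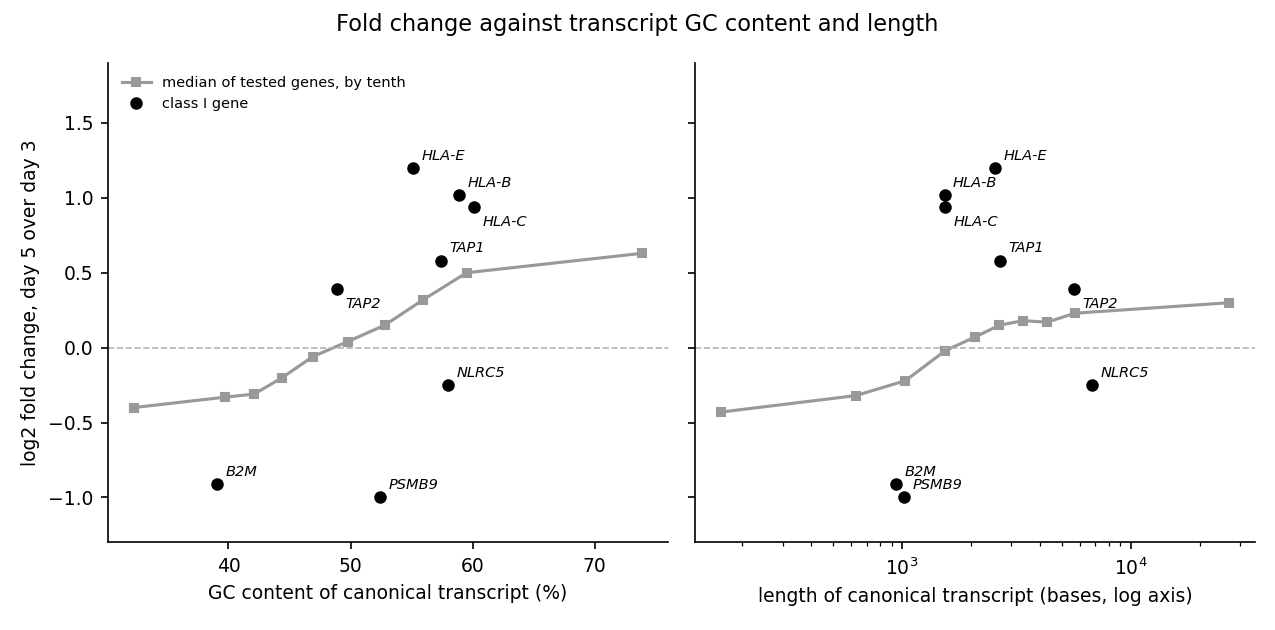
Log2 difference of day 5 over day 3 against the GC content (left) and the length (right, log axis) of the canonical transcript, with the class I genes as points and the median of each of 10 equal bins of tested genes as a line. The line rises from -0.40 to 0.63 with GC content, HLA-E, HLA-B and HLA-C lie above it, and B2M, PSMB9 and NLRC5 lie below it.

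Of 20 other genes of the pathway, 17 were tested, of which 7 rose, 5 fell and 5 did not pass, with a median log2 difference of 0.19. Over all genes tested, 29.3% rose and 27.6% fell, with a median of 0.01. The nonclassical HLA-F rose by 0.69 and MR1, which presents vitamin B metabolites, by 0.56 on the log2 scale (limma adjusted p = 0.00302 and 0.00337).

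TAPBP, the tapasin that bridges TAP and the heavy chain, was at 1088, 1284 and 1250 on day 3 and at 3863, 3719 and 3511 on day 5. This was the greatest change among the genes of the pathway, with no overlap and a log2 difference of 1.62 (SE 0.10; limma adjusted p = 0.000186), and 1.11 with the composition trends removed (limma adjusted p = 0.000563). PDIA3, a disulfide isomerase of the peptide loading complex, rose by 0.70 (limma adjusted p = 0.00129). ERAP2, an aminopeptidase that trims peptides in the endoplasmic reticulum, fell by 0.89 on the log2 scale (limma adjusted p = 0.00277), and PSME2, a subunit of the proteasome activator PA28, fell by 0.65 (limma adjusted p = 0.00254).

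Among 13 regulators that bind class I promoters or act on them, 3 rose, 2 fell and 8 did not pass. Over all genes tested, 56.9% passed, and these few regulators were not tested against that share. RELA, a subunit of NF-kappaB, was at 979, 1218 and 1430 on day 3 and at 3173, 3088 and 3242 on day 5, a log2 difference of 1.41 (SE 0.15; limma adjusted p = 0.000593). NFKB1, another NF-kappaB subunit, rose by 0.49 (limma adjusted p = 0.0127) and missed the threshold with no filter (0.0587) and, at 0.24, with the trends of GC content and length removed (0.0676). NFYB, a subunit of NF-Y, fell by 0.94 on the log2 scale (limma adjusted p = 0.000293). IRF1 and RFX5, which carry interferon or enhanceosome input to these promoters, did not pass, at log2 differences of 0.26 and 0.04 (limma adjusted p = 0.194 and 0.656).

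Of 13 genes of interferon receptors and JAK-STAT signalling, 5 rose and 3 fell, where 29.3% of all genes tested rose and 27.6% fell. STAT2 was at 0.79 and the feedback inhibitor SOCS3 at 0.87 on the log2 scale (limma adjusted p = 0.000584 and 0.00299). With the trends of GC content and length removed, STAT2 was at 0.51 and SOCS3 at 0.33 (limma adjusted p = 0.00384 and 0.0429). SOCS1 rose by 0.84 (limma adjusted p = 0.0322) and was at 0.33 with those trends removed (0.312). It also missed the threshold with no filter (limma adjusted p = 0.0883), with a replicate block (0.056) and when day 3 replicate 1 or 3 or day 5 replicate 1 or 3 was left out (0.0526 to 0.0892). Of 19 interferon-stimulated genes, 12 were tested. Of these, 3 rose and 4 fell, against 29.3% and 27.6% of all genes tested. Their median log2 difference was -0.22, against 0.01 over all genes tested. The transcription factor IRF7 was at 46.5, 55 and 56.7 on day 3 and at 193, 196 and 144 on day 5 (log2 difference 1.72; limma adjusted p = 0.000376), while the translation inhibitor IFIT1 was at 277, 280 and 254 on day 3 and at 121, 89 and 107 on day 5 (log2 difference -1.36; limma adjusted p = 0.000461). The antiviral GTPase MX1 rose by 0.93 (limma adjusted p = 0.0226) and missed the threshold with no filter (0.0667) or without day 5 replicate 3 (0.0617). Members of this list moved in both directions, as did the genes tested as a whole.

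The 3 genes outside the list whose profile over the 6 libraries was nearest to the mean profile of the 8 tested genes were CTTNBP2NL, ADNP2 and EIF2AK1. Their root mean square distances were 0.012, 0.0151 and 0.0184 on the log2 scale, among 12707 candidate genes. The mean profile joins genes that rose with genes that fell, and the distance of single class I genes from it was not computed.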

How the data were processed

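Whole transcriptome RNAseq of HCT116 cells on day 3 and day 5 was used, with 3 libraries per day labelled as biological replicates. Whether these came from separate cultures is not given in the sources used here, so p-values measure the spread between these libraries. Per the methods, rRNA-depleted libraries with molecular identifiers were mapped by strand to Ensembl v99 genes of hg38 and normalized with TMM in CLC Genomics Workbench. The deposited values are a normalized signal per gene, and in every library they were whole multiples of 1 read (tolerance 0.01), so reads were recovered. The deposited table also lists the authors' own fold changes and p-values, which were not used, and the small RNA tables and day 7 were not analysed here.

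limma 3.58.1 (R 4.3.3) was fitted to log2(value + 1) with no block. Ratios within a library were tested by exact permutation. Alternatives were library totals, no filter, a pseudocount of 0.1, a replicate block, leaving out each library, and edgeR 4.0.16 and DESeq2 1.42.0 on the recovered reads. The correction for GC content and length (loess per library) and the heavy chain ratio per kilobase were chosen after seeing the data. Loci, lengths and GC content came from GENCODE annotation on GRCh38. The genes, lists and motifs were chosen with earlier results of these data, or these promoter windows, known. Genes named outside the 9 were a preset selection and, in each list, the 3 that passed with the greatest differences. HLA-DRB1 is also given, as the partner chain of HLA-DRA. Some genes of these lists are counted but not reported here by name. Simulated data with known changes were used to test the limma fit. Figures were drawn with matplotlib 3.10.9.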

Additional observations from a re-analysis of the deposited data

How the results depend on the processing

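Across 13 alternatives, 98 of 104 values of the 8 tested class I genes kept their direction and their side of the threshold, and 0 reversed. The exceptions were B2M, TAP1, TAP2 and NLRC5 under the correction for GC content and length, TAP2 with no filter, and NLRC5 without day 5 replicate 1. Under the correction for GC content and length, 3 class I genes passed as higher in place of 5, and their median log2 difference was 0.11 in place of 0.48. Among other named genes, 347 of 377 values stayed on their side of the threshold, and 0 that passed changed sign. IRF1 and RFX5, which did not pass, changed sign under the correction for GC content and length, to -0.06 and -0.13, and PSMB10 lay between -0.30 and 0.21 over the alternatives. With library totals, the median log2 difference of the 8 tested class I genes was 0.55 in place of 0.48. The same-numbered libraries of both days did not deviate together (correlations of -0.0112, 0.0343 and 0.0234), so no pairing by number was detected. Whether same-numbered libraries were grown or handled together cannot be told from these values. With a replicate block, 10533 genes passed in place of 11450, with 5 class I genes higher and 2 lower as before, and 33 of 37 named genes stayed on the same side, the others being PSMB6, SOCS1, MICA and MICB. PSMB8 was limited by depth.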

Other observations

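Of 8 NKG2D ligand genes, which mark stressed cells for natural killer cells, 1 rose and 1 fell, where 56.9% of all genes tested passed. MICB was at 1011, 1039 and 971 on day 3 and at 1246, 1203 and 1190 on day 5 (log2 difference 0.27; limma adjusted p = 0.021), and MICA was at 738, 784 and 771 on day 3 and at 666, 604 and 581 on day 5 (log2 difference -0.31; limma adjusted p = 0.0218). Both calls were lost with a replicate block (limma adjusted p = 0.0644 and 0.0669). The MICB call was also lost without any 1 of the day 5 libraries (0.0503 to 0.0736), with no filter (0.13) and with the trends of GC content and length removed (0.0788). The MICA call was also lost without day 3 replicate 2 or day 5 replicate 2 or 3 (limma adjusted p = 0.0703 to 0.0725), with library totals (0.0693) and with no filter (0.113).

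Of 9 MHC class II genes, 6 were tested and 1 passed in limma, where 56.9% of all genes tested passed. HLA-DRA, the alpha chain of HLA-DR, was at 57.9, 51.3 and 55.3 on day 3 and at 17.4, 25.7 and 20.7 on day 5 (log2 difference -1.34; limma adjusted p = 0.00074). Its partner chain HLA-DRB1 lay the other way, at 12.3, 18.5 and 11.3 on day 3 and at 34.7, 22.5 and 18.6 on day 5. HLA-DRB1 did not pass (log2 difference 0.79; limma adjusted p = 0.0512), and its values rest on 52 reads on day 3 and 71 on day 5.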
